A study of Danio rerio with 14 samples.

Results

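The genes described here are the glutathione, thioredoxin and Nrf2 antioxidant genes of the zebrafish, Danio rerio. They were chosen by name. The list held 32 genes of Nrf2 control, glutathione and thioredoxin chemistry, peroxide and superoxide removal and heme breakdown. Every gene whose symbol marks it as a cytosolic, kappa-class or microsomal glutathione transferase was added. In the gene table used for names, 53 genes met this rule. Of these, 47 were represented on the array through a RefSeq accession, by 88 probes, out of 12787 genes measured in all. Every one of the 88 probes passed the filter on dim signals. The 6 genes not analysed here are srxn1, sqstm1, nfe2l2b, slc7a11, gstt1a and gstk2, and the listed thioredoxin gene txn was found under the symbol txnb.

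Expression was profiled by 1-colour microarray in whole larvae of the wild-type AB strain, collected at an age of 5 days. The study asked how secondary effluent from a wastewater plant in Tucson, reconstituted in the embryo saline E3, alters larval gene expression. Groups of 25 to 30 embryos per well were kept from 3 h after fertilisation in effluent at its original strength (1x, 5 arrays), at 0.5x (5 arrays) or without effluent (control, 4 arrays). All groups lived in E3, which contains a trace of methylene blue, the control with 0.05% of the solvent DMSO and the effluent groups with at most that amount. The larvae of a well were pooled as 1 replicate, so p-values measure the spread between wells, together with any spread between slides and scan days. The sources used here do not say whether the wells shared a clutch.

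Nrf2 is a transcription factor that the adaptor protein Keap1 normally delivers to degradation. Electrophiles and oxidants modify cysteines of Keap1, Nrf2 then accumulates and, paired with small Maf proteins, switches on genes that make glutathione, attach it to foreign compounds or reduce oxidised proteins. Zebrafish embryos have this pathway, and the pi-class glutathione transferase gene gstp1.1 is commonly read as its output there. Many of these enzymes are also constitutively abundant in liver and gut.

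Levels below are log2 signals less the 75th percentile of the same array, so 0 is the level of that percentile. A level describes 1 probe and is not compared between genes. Differences are in the same log2 units with their standard error (SE), and were called at an adjusted p under 0.05 over all 38803 probes tested. Each gene is represented by its brightest probe. Of the 14 arrays, 6 lay on slides 1 and 2 and were scanned on a first day, and 8 lay on slides 3 and 4 and were scanned on a second day; the files show a scan day, not a day of exposure or extraction. Control replicates 1 and 2 were scanned on day 1 and stood apart from the other 12 arrays on the main axis of variation, which held 38.1% of the variance. They lay below all other arrays for 35 of the 47 antioxidant genes (74.5%), against 15.6% of all genes. The median SD among control arrays was 0.40 for these genes, against 0.15 among 1x arrays and 0.18 among 0.5x arrays. The control SD was the largest of the 3 for 38 of the 47, and for 61% of all genes. The fit used 1 spread shared by the 3 groups, which for such genes understates that of the controls. The SE and adjusted p of their differences from control can then be too small. For the genes called at 1x, differences are therefore given with all arrays, within each scan day, and without control replicates 1 and 2. Neither of these arrays was left out of the values given first.

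At 1x, 21 of the 47 antioxidant genes passed the threshold against control, 18 of them higher and 3 lower. Over all 12787 genes 26.6% were called, 10.3% higher and 16.2% lower. The median difference of the antioxidant genes was 0.36, against -0.05 for all genes. Glutathione transferases made up 11 of the 18 that rose, led by gstp1.1, gsto2 and gsta.1. The other 7 were keap1a, gss, gpx1b, prdx1, txnb, txnrd3 and hmox1a, and the 3 that fell were keap1b, gpx3 and hmox1b. For 9 genes all 1x arrays lay above all control arrays and for 3 all lay below, 25.5% of the 47, where 20.3% of all genes had groups that did not overlap. Without control replicates 1 and 2, 5 genes were called: prdx1, mgst1.1 and mgst3b higher, gpx3 and hmox1b lower. This share of the 47 was no larger than that of all genes in the same fit, 11.4%. Without control replicate 1 alone 10 genes were called (14.3% of all genes), without control replicate 2 alone 12 (17%), and without 1x replicate 3 alone 13 (16.5%). With slide as a block, 28 genes were called (34.6% of all genes): 19 of the 21, with keap1a (adjusted p = 0.0603) and hmox1b (adjusted p = 0.0657) lost and cat, gpx4a, gpx7, gsr, gsto1, gstz1, prdx3, prdx6 and sod1 gained. Control replicate 1 was needed for 11 of the 21 calls and control replicate 2 for 9. The calls lost most often when 1 array was left out were those of gsta.1 (in 12 of 14 such fits), gstt2 (11), hmox1a (10), hmox1b (10) and keap1a (9).

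**Figure D1:**
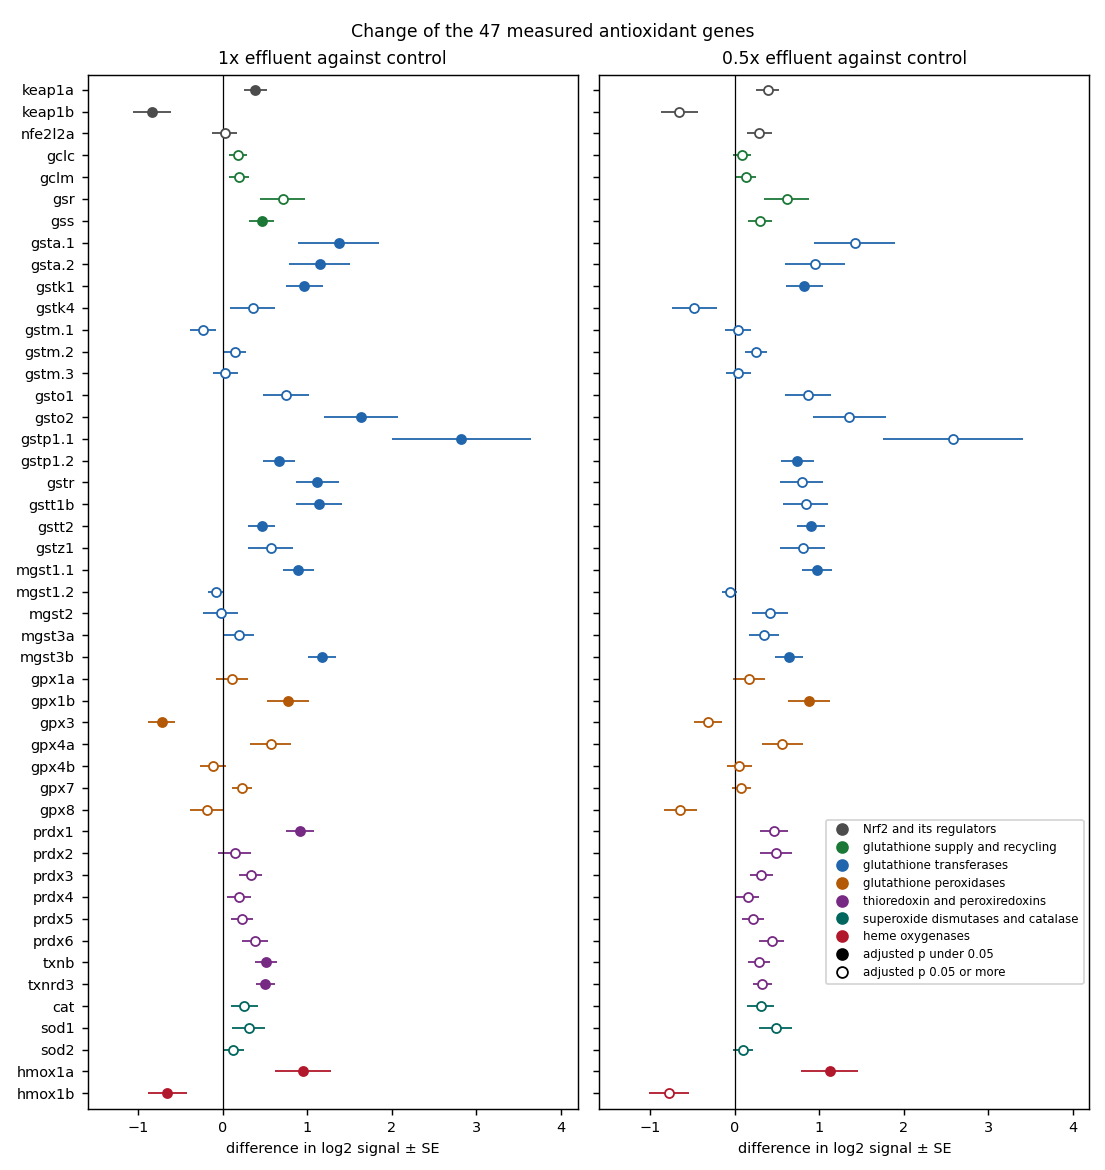
Difference in log2 signal from control (x axis, ± SE of the fit) for each of the 47 genes (y axis), at 1x on the left and at 0.5x on the right, coloured by role, with filled points where the adjusted p was under 0.05. At 1x 18 filled points lie right of 0 and 3 left of it, and at 0.5x 7 lie right of 0 and none left.

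Among the regulators, the transcript of Nrf2 itself was not called by its brightest probe, while those of both Keap1 copies were called in opposite directions. The level of nfe2l2a, which encodes Nrf2, was 2.26, 2.16, 1.99 and 2.46 on the control arrays, 2.15, 2.64, 2.54, 2.61 and 2.62 on the 0.5x arrays and 1.89, 2.37, 2.23, 2.19 and 2.52 on the 1x arrays. The groups overlapped, and the difference at 1x was 0.02 ± 0.15 (SE), adjusted p = 0.916. A second, dimmer probe of nfe2l2a was called lower at 1x, by -0.38 (adjusted p = 0.0308). For keap1a the levels were 0.64, 0.76, 1.09 and 1.20 on the control arrays, 1.52, 1.39, 1.296, 1.36 and 1.01 on the 0.5x arrays and 1.22, 1.43, 1.26, 1.49 and 1.14 on the 1x arrays. Its difference at 1x was 0.38 ± 0.14 (SE), adjusted p = 0.0499, just inside the threshold, and all 3 of its probes were called higher, although the groups overlapped and the estimate without control replicates 1 and 2 was 0.16 (adjusted p = 0.431). On day 1 keap1a differed by 0.60 and on day 2 by 0.17.

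The second Keap1 gene, keap1b, read 6.33, 5.89, 5.19 and 5.24 on the control arrays, 4.83, 5.24, 4.62, 5.06 and 5.29 on the 0.5x arrays and 5.04, 4.71, 4.79, 4.54 and 5.04 on the 1x arrays. Every 1x array lay below every control array, and keap1b fell at 1x by 1.79-fold (-0.84 ± 0.22 (SE), adjusted p = 0.0152). Control replicates 1 and 2 were the highest arrays for this gene, the reverse of most of the list, and without them the difference was -0.39 (adjusted p = 0.169). It was -1.26 on day 1 and -0.42 on day 2. The call rests on the brightest probe, since the 3 dimmer probes of keap1b differed by 0.42, -0.03 and 0.22, none of them called.

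Glutathione is built by glutamate-cysteine ligase, with the catalytic subunit Gclc and the modifier Gclm, and by glutathione synthetase Gss, and is kept reduced by glutathione reductase Gsr. Of these 4 genes, gss was called at 1x, and gsr as well with slide as a block. Of all genes, 26.6% were called at 1x, and 34.6% with slide as a block. The rate-limiting ligase showed small differences: gclc was at 2.21, 2.34, 2.47 and 2.57 on the control arrays, 2.41, 2.43, 2.53, 2.51 and 2.58 on the 0.5x arrays and 2.71, 2.48, 2.43, 2.73 and 2.56 on the 1x arrays. Its groups overlapped, the difference at 1x was 0.18 ± 0.10 (SE), adjusted p = 0.191, and the dimmest of its 3 probes was called lower, by -0.52 (adjusted p = 0.0149). For gclm the arrays gave -0.05, 0.08, 0.26 and 0.33 on the control arrays, 0.24, 0.20, 0.32, 0.28 and 0.40 on the 0.5x arrays and 0.38, 0.12, 0.21, 0.61 and 0.42 on the 1x arrays. No array group stood apart for gclm, and its difference at 1x was 0.19 ± 0.12 (SE), adjusted p = 0.22.

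The reductase gene gsr was at -1.32, -0.76, 0.21 and 0.15 on the control arrays, 0.57, -0.10, 0.29, 0.24 and -0.07 on the 0.5x arrays and 0.23, 0.48, 0.34, 0.28 and 0.07 on the 1x arrays. Control replicates 1 and 2 were far below its other arrays, which overlapped between groups. The difference at 1x was 0.71 ± 0.26 (SE), adjusted p = 0.0565, made up of 1.39 on day 1 and -0.01 on day 2. For gss the difference at 1x was 0.46 ± 0.15 (SE), adjusted p = 0.0312. Its second probe went the other way, by -0.89 (adjusted p = 0.00506), so gss was the only gene of the list with probes called in both directions, and without control replicates 1 and 2 its brighter probe gave 0.19 (adjusted p = 0.286). That probe of gss differed by 0.68 on day 1 and 0.27 on day 2.

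Glutathione transferases attach glutathione to electrophilic compounds, and 20 of their genes were measured. At 1x 11 were called higher and none lower, where 10.3% of all genes were called higher and 16.2% lower. A positive difference was found for 17, a count not made over all genes. The median difference of the 20 was 0.71, against -0.05 for all genes. It was 1.21 within day 1 and 0.25 within day 2. The pi-class gene gstp1.1 had the widest range of all members: -4.51, -3.39, 0.41 and 0.69 on the control arrays, 1.41, 0.34, 1.29, 0.94 and 0.45 on the 0.5x arrays and 1.21, 1.15, 1.21, 1.15 and 0.91 on the 1x arrays. The other 12 arrays lay between 0.34 and 1.41, and control replicates 1 and 2 lay more than 3 log2 units lower. With all arrays gstp1.1 was 7.09-fold higher at 1x (2.83 ± 0.83 (SE), adjusted p = 0.0226). On day 1 the difference was 5.14 and on day 2 0.48, and without control replicates 1 and 2 it was 0.58 (adjusted p = 0.138). Even so, the lowest 1x array of gstp1.1 was above the highest control array.

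Its neighbour in name gstp1.2 differed far less between the control arrays, and all 4 of its probes were called higher at both strengths. The brightest gave 0.66 ± 0.19 (SE), adjusted p = 0.0213 at 1x and 0.74 ± 0.19 (SE), adjusted p = 0.0303 at 0.5x. At 1x, gstp1.2 differed by 0.91 on day 1 and 0.49 on day 2. Without control replicates 1 and 2 neither call of gstp1.2 held, with 0.26 (adjusted p = 0.265) at 1x and 0.34 (adjusted p = 0.358) at 0.5x. The sources used here do not state whether the probes tell such close copies apart.

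Among the alpha class, gsta.1 was at 1.47, 1.94, 4.31 and 4.43 on the control arrays, 4.54, 4.50, 4.65, 4.41 and 4.18 on the 0.5x arrays and 4.34, 4.41, 4.50, 4.42 and 4.38 on the 1x arrays. Outside control replicates 1 and 2, all arrays of gsta.1 lay between 4.18 and 4.65. Its difference at 1x was 1.37 ± 0.48 (SE), adjusted p = 0.046, but 2.71 within day 1, 0.03 within day 2 and 0.04 (adjusted p = 0.834) without those arrays. For gsta.2 the levels were -0.05, 0.98, 2.14 and 2.29 on the control arrays, 2.09, 2.08, 2.59, 2.42 and 2.27 on the 0.5x arrays and 2.72, 2.22, 2.64, 2.45 and 2.41 on the 1x arrays. Its lowest arrays were again control replicates 1 and 2, and the others overlapped between groups. The difference of gsta.2 at 1x was 1.15 ± 0.36 (SE), adjusted p = 0.0292, with 2.06 within day 1, 0.21 within day 2 and 0.27 (adjusted p = 0.26) without those arrays.

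Omega-class enzymes also reduce dehydroascorbate. The omega gene gsto2 read -0.42, -0.25, 1.81 and 2.05 on the control arrays, 2.50, 1.76, 2.40, 2.38 and 1.75 on the 0.5x arrays and 2.49, 2.49, 2.76, 2.20 and 2.24 on the 1x arrays. All 1x arrays exceeded all control arrays, and gsto2 was 3.11-fold higher at 1x (1.64 ± 0.43 (SE), adjusted p = 0.0152), with 2.91 on day 1 and 0.29 on day 2. Without control replicates 1 and 2 the difference of gsto2 was 0.51 (adjusted p = 0.14). Its relative gsto1 narrowly missed the threshold at 1x (0.75 ± 0.27 (SE), adjusted p = 0.0506).

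The kappa-class gene gstk1, whose product sits in mitochondria and peroxisomes in mammals, was at -1.04, -0.67, 0.07 and 0.31 on the control arrays, 0.76, 0.45, 0.51, 0.50 and 0.24 on the 0.5x arrays and 0.61, 0.73, 0.72, 0.64 and 0.48 on the 1x arrays. Every 1x array was above every control array, both probes were called, and the difference was 0.97 ± 0.22 (SE), adjusted p = 0.00793. Within day 1 it was 1.54, within day 2 0.37, and without control replicates 1 and 2 0.44 (adjusted p = 0.0569). The dim gene gstk4, of the same class, was above background on 3 of 5 arrays at 0.5x and gave 0.36 ± 0.27 (SE), adjusted p = 0.322 at 1x.

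For gstr, of the rho class that fish have and mammals lack, the levels were 0.06, 0.43, 1.41 and 1.43 on the control arrays, 1.96, 1.56, 1.75, 1.65 and 1.23 on the 0.5x arrays and 1.66, 2.03, 2.18, 1.83 and 2.06 on the 1x arrays. The 1x arrays did not overlap the controls, and gstr rose by 1.12 ± 0.25 (SE), adjusted p = 0.00789. The theta gene gstt1b was at 1.46, 1.44, 2.69 and 2.90 on the control arrays, 2.74, 2.85, 3.28, 3.01 and 2.93 on the 0.5x arrays and 3.28, 3.12, 2.98, 3.45 and 3.48 on the 1x arrays. It was 2.20-fold higher at 1x (1.14 ± 0.27 (SE), adjusted p = 0.00956), again with no overlap and with both probes called. Within day 1 the differences were 1.71 for gstr and 1.68 for gstt1b, within day 2 0.53 and 0.67, and without control replicates 1 and 2 gstr gave 0.53 (adjusted p = 0.0729) and gstt1b 0.47 (adjusted p = 0.0827). By its brightest probe the second theta gene, gstt2, had its highest levels at 0.5x, with 0.12, 0.45, 0.53 and 0.93 on the control arrays, 1.54, 1.39, 1.35, 1.31 and 1.48 on the 0.5x arrays and 0.53, 1.23, 0.86, 1.11 and 1.11 on the 1x arrays. All 0.5x arrays of gstt2 lay above all control and all 1x arrays. It rose at both strengths, by 0.46 ± 0.16 (SE), adjusted p = 0.047 at 1x and 0.91 ± 0.16 (SE), adjusted p = 0.00557 at 0.5x. At 1x, gstt2 differed by 0.59 on day 1, 0.38 on day 2 and 0.24 (adjusted p = 0.353) without control replicates 1 and 2. The dimmer probe of gstt2 was also called higher at both strengths, but in the opposite order. It gave 1.23 (adjusted p = 0.00239) at 1x and 0.83 (adjusted p = 0.0312) at 0.5x.

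Microsomal transferases are a separate, membrane-bound family. The gene mgst3b was at 3.17, 2.98, 3.77 and 3.74 on the control arrays, 4.23, 3.96, 4.18, 4.04 and 3.89 on the 0.5x arrays and 4.86, 4.40, 4.40, 4.70 and 4.62 on the 1x arrays. The 3 groups of mgst3b did not overlap at all: the controls ended at 3.77, the 0.5x arrays ran from 3.89 to 4.23 and the 1x arrays began at 4.40. It was 2.26-fold higher at 1x (1.18 ± 0.17 (SE), adjusted p = 0.000769), and this was called in each of the 28 alternative settings. Within day 1 the difference was 1.47, within day 2 0.91, and without control replicates 1 and 2 0.84 (adjusted p = 0.0063).

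For mgst1.1 the arrays read -0.97, -0.63, -0.27 and 0.14 on the control arrays, 0.73, 0.35, 0.56, 0.70 and 0.35 on the 0.5x arrays and 0.37, 0.66, 0.36, 0.43 and 0.50 on the 1x arrays. Its effluent arrays all exceeded its control arrays at both strengths. The difference was 0.90 ± 0.18 (SE), adjusted p = 0.00465 at 1x and 0.97 ± 0.18 (SE), adjusted p = 0.00667 at 0.5x, and without control replicates 1 and 2 it was 0.53 (adjusted p = 0.0441) at 1x. The difference of mgst1.1 at 1x was 1.26 on day 1 and 0.53 on day 2. The brightest probe of mgst1.2 gave -0.08 ± 0.09 (SE), adjusted p = 0.525, while its other probe was called higher, by 1.302 (adjusted p = 0.00564). The remaining transferases that were not called at 1x, gstm.1, gstm.2, gstm.3, gstz1, mgst2 and mgst3a, had differences from -0.23 for gstm.1 to 0.57 for gstz1.

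**Figure D2:**
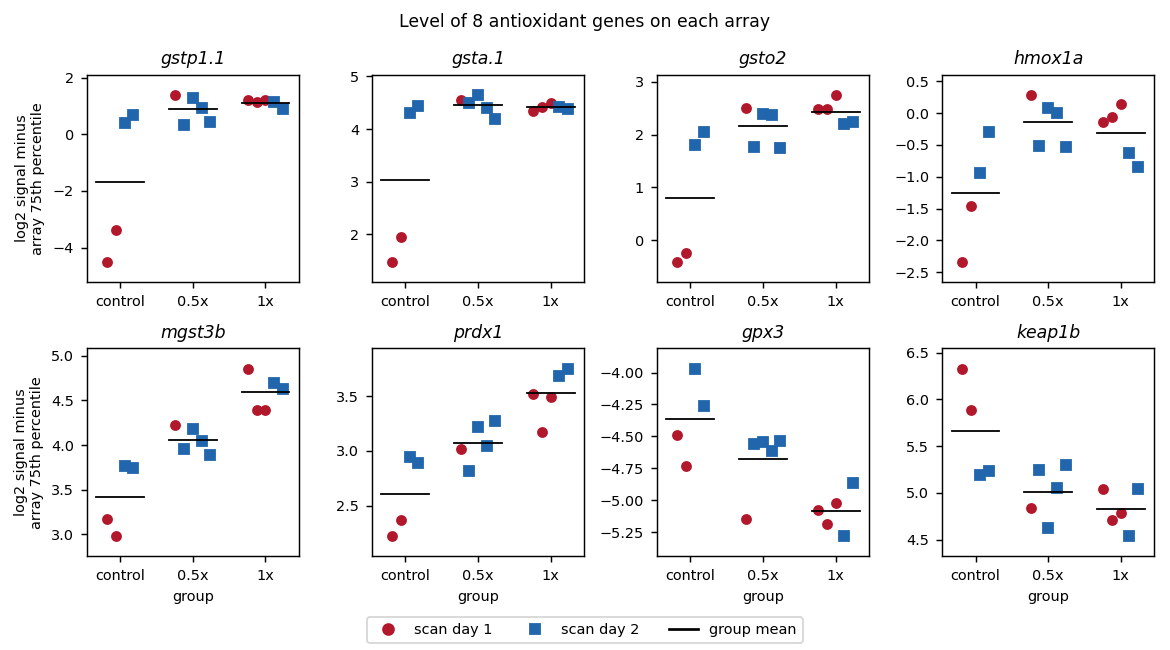
Level of 8 genes on each array (y axis, log2 signal less the array's 75th percentile) by group (x axis), with scan day 1 as red circles, scan day 2 as blue squares and the group mean as a black line; the y axes differ. Control replicates 1 and 2 are the low red points of gstp1.1, gsta.1, gsto2 and hmox1a, while for mgst3b and prdx1 the 1x arrays of both days lie above all controls.

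Glutathione peroxidases use glutathione to reduce peroxides. Of 7 genes, gpx1b was called higher at 1x and gpx3 lower, a share near the 26.6% of all genes called. The cytosolic peroxidase gene gpx1b read -0.22, -0.24, 0.93 and 1.08 on the control arrays, 1.27, 1.27, 1.22, 1.51 and 1.08 on the 0.5x arrays and 1.11, 1.22, 1.46, 0.88 and 1.13 on the 1x arrays. Control replicates 1 and 2 lay below 0 and every other array at 0.88 or above. Its difference at 1x was 0.77 ± 0.25 (SE), adjusted p = 0.0331, with 1.49 on day 1, 0.00 on day 2 and 0.15 (adjusted p = 0.488) without control replicates 1 and 2.

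The gene of the secreted plasma peroxidase, gpx3, was dim but well above background on all arrays, at -4.49, -4.73, -3.97 and -4.26 on the control arrays, -5.14, -4.56, -4.55, -4.62 and -4.54 on the 0.5x arrays and -5.07, -5.19, -5.03, -5.28 and -4.87 on the 1x arrays. It had a mean of -4.36 ± 0.32 (SD, n = 4) in controls, -4.68 ± 0.26 (SD, n = 5) at 0.5x and -5.09 ± 0.16 (SD, n = 5) at 1x. Every 1x array lay below every control array, and gpx3 fell by 1.65-fold (-0.72 ± 0.16 (SE), adjusted p = 0.00783). The call held in each of the 28 alternative settings. The difference of gpx3 was -0.49 on day 1, -0.96 on day 2 and -0.97 (adjusted p = 0.00772) without control replicates 1 and 2. The other peroxidases gave differences from -0.19 for gpx8 to 0.57 for gpx4a, whose adjusted p was 0.0914. One dimmer probe each of gpx4a (0.70, adjusted p = 0.0427) and gpx7 (0.38, adjusted p = 0.0323) was called higher.

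Thioredoxin passes electrons from thioredoxin reductase to peroxiredoxins, which remove hydrogen peroxide. All 8 measured genes had positive differences at 1x and 3 were called higher, where 10.3% of all genes were called higher. The share of all genes with a positive difference was not computed. The cytosolic peroxiredoxin gene prdx1 was at 2.22, 2.37, 2.95 and 2.89 on the control arrays, 3.01, 2.81, 3.22, 3.04 and 3.27 on the 0.5x arrays and 3.52, 3.17, 3.50, 3.68 and 3.75 on the 1x arrays. The lowest 1x array, at 3.17, was above the highest control array, at 2.95, and the 0.5x arrays ran from 2.81 to 3.27. It was 1.89-fold higher at 1x (0.92 ± 0.17 (SE), adjusted p = 0.003), by all 3 probes, and was called in each of the 28 alternative settings. The difference of prdx1 was 1.098 on day 1, 0.80 on day 2 and 0.61 (adjusted p = 0.0346) without control replicates 1 and 2.

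For thioredoxin, txnb, the arrays gave 1.01, 1.05, 1.42 and 1.64 on the control arrays, 1.64, 1.50, 1.58, 1.56 and 1.57 on the 0.5x arrays and 1.86, 1.60, 1.86, 1.79 and 1.85 on the 1x arrays. One 1x array reached down to 1.60, below the highest control array at 1.64. The difference was 0.51 ± 0.13 (SE), adjusted p = 0.0116, with 0.74 on day 1, 0.29 on day 2 and 0.26 (adjusted p = 0.122) without control replicates 1 and 2. The thioredoxin reductase gene txnrd3 differed by 0.50 ± 0.11 (SE), adjusted p = 0.00715, with all 1x arrays above all control arrays and 3 of its 4 probes called, and by 0.32 (adjusted p = 0.0751) without control replicates 1 and 2. On day 1 txnrd3 differed by 0.63 and on day 2 by 0.39. Outside prdx1, the peroxiredoxin genes differed by 0.14 for prdx2 to 0.38 for prdx6, none called by its brightest probe. The dimmer probe of prdx3 was called higher, by 0.70 (adjusted p = 0.0344).

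Superoxide dismutases turn superoxide into hydrogen peroxide, which catalase splits. None of these 3 genes was called at either strength in the fit without a block, while with slide as a block cat and sod1 were called at 1x. The shares of all genes were 26.6% at 1x and 8.67% at 0.5x, and 34.6% at 1x with slide as a block. The cytosolic dismutase sod1 was at 4.79, 4.81, 5.56 and 5.83 on the control arrays, 5.46, 5.64, 5.88, 5.93 and 5.78 on the 0.5x arrays and 5.39, 5.49, 5.63, 5.53 and 5.74 on the 1x arrays. Control replicates 1 and 2 were again its lowest arrays, and the difference at 1x was 0.31 ± 0.20 (SE), adjusted p = 0.248. The mitochondrial dismutase sod2 had levels of 3.92, 3.81, 4.11 and 4.16 on the control arrays, 3.79, 4.15, 4.26, 4.11 and 4.19 on the 0.5x arrays and 4.10, 3.93, 4.04, 4.23 and 4.34 on the 1x arrays. Its groups overlapped and its difference at 1x was 0.13 ± 0.12 (SE), adjusted p = 0.457, close in size on day 1 (0.16) and day 2 (0.15). Catalase, cat, read 3.54, 3.65, 4.18 and 4.42 on the control arrays, 4.07, 4.22, 4.35, 4.38 and 4.28 on the 0.5x arrays and 4.22, 4.08, 4.09, 4.34 and 4.27 on the 1x arrays. The brightest cat probe gave 0.25 ± 0.16 (SE), adjusted p = 0.242 at 1x, and both dimmer probes were called higher, by 0.68 (adjusted p = 0.0137) and 1.17 (adjusted p = 0.0241).

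Heme oxygenase opens the heme ring to biliverdin, iron and carbon monoxide, and its gene is a classical stress target. For hmox1a the levels were -2.34, -1.45, -0.94 and -0.30 on the control arrays, 0.29, -0.52, 0.08, 0.01 and -0.53 on the 0.5x arrays and -0.14, -0.06, 0.13, -0.63 and -0.85 on the 1x arrays. The groups overlapped. The difference was 0.95 ± 0.34 (SE), adjusted p = 0.0464 at 1x and 1.13 ± 0.34 (SE), adjusted p = 0.0495 at 0.5x. Within day 2 it was -0.12 at 1x, against 1.87 on day 1, and without control replicates 1 and 2 it was 0.31 (adjusted p = 0.466). The second copy, hmox1b, read -0.17, -0.25, -0.13 and 0.97 on the control arrays, -0.44, -0.21, -0.99, -0.81 and -0.90 on the 0.5x arrays and -0.56, -0.54, -0.84, -0.38 and -0.43 on the 1x arrays. All 1x arrays lay below all control arrays, and hmox1b fell, with a difference of -0.65 ± 0.23 (SE), adjusted p = 0.0477. Its mean was 0.10 ± 0.58 (SD, n = 4) in controls and -0.55 ± 0.18 (SD, n = 5) at 1x, control replicate 4 was its highest array, and without control replicate 4 alone the call was lost. The difference of hmox1b was -0.44 on day 1, -0.82 on day 2 and -0.97 (adjusted p = 0.0406) without control replicates 1 and 2.

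At 0.5x, 7 antioxidant genes were called higher than control and none lower: gpx1b, gstk1, gstp1.2, gstt2, hmox1a, mgst1.1 and mgst3b. Nearest outside the threshold were hmox1b (-0.78 ± 0.23 (SE), adjusted p = 0.0502), gpx8 (-0.64 ± 0.20 (SE), adjusted p = 0.052) and gsto1 (0.87 ± 0.27 (SE), adjusted p = 0.0561). With scan day as a block hmox1b and gpx8 were called lower, where 12.2% of all genes were called. At the same adjusted threshold 8.67% of all genes were called, 4.38% higher and 4.29% lower. At an unadjusted p under 0.05 there were 28 of the 47, all higher except keap1b, gpx8 and hmox1b, and at 1x there were 26. The share of all genes at that unadjusted threshold was not computed, so neither count has a background. The median difference of the 47 was 0.35 at 0.5x, against -0.04 for all genes, and thus near the 0.36 at 1x. The differences of the 7 were 0.88 for gpx1b (adjusted p = 0.041), 0.82 for gstk1 (adjusted p = 0.0339) and 0.64 for mgst3b (adjusted p = 0.031), with those of gstt2, mgst1.1, gstp1.2 and hmox1a given above. All 7 were also called at 1x, a comparison that uses the same control arrays. At 0.5x gstp1.1 (2.58 ± 0.83 (SE), adjusted p = 0.0611) and gsta.1 (1.42 ± 0.48 (SE), adjusted p = 0.0727) were not called. Their differences were near those at 1x, with the same SE. For gsta.1 the unadjusted p of limma was 0.0104 at 0.5x and 0.0127 at 1x, where it was called. The adjusted p also depends on the p-values of all probes tested, and fewer genes passed at 0.5x. For 6 genes all 0.5x arrays lay above all controls (12.8% of the 47, against 10.9% of all genes not overlapping in either direction). Without control replicates 1 and 2 none of the 47 was called at 0.5x (1.75% of all genes), and gstt2 gave 0.68 (adjusted p = 0.081). The count was 2 without control replicate 1 (3.06% of all genes), 2 without control replicate 2 (2.85%), 23 without control replicate 3 (15.5%) and 29 without control replicate 4 (24%). It was also 4 without 0.5x replicate 1 (5.66%), 4 without 0.5x replicate 2 (4.85%), 2 without 0.5x replicate 3 (3.86%) and 2 without 0.5x replicate 4 (4.11%), so the share of all genes moved with the count of the 47.

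Between the strengths, 1x against 0.5x, limma called none of the 47 genes, where 4.32% of all genes were called, 1.67% higher and 2.64% lower at 1x. At an unadjusted p under 0.05, for which the share of all genes was not computed, there were 7. Of these gpx8, gstk4, mgst3b and prdx1 had higher values at 1x, and gpx3, gstt2 and mgst2 lower ones. The nearest to the threshold was mgst3b, at 0.54 ± 0.16 (SE), adjusted p = 0.0713, with all 1x arrays above all 0.5x arrays and a 95% interval of 0.20 to 0.87. It was called in 8 alternative settings. Next was the dim gene gstk4, at 0.83 ± 0.25 (SE), adjusted p = 0.0773, with an interval of 0.30 to 1.37, overlapping groups and a call in 2 alternative settings. For prdx1 the difference was 0.45 ± 0.16 (SE), adjusted p = 0.122, with an interval of 0.11 to 0.79. For gstt2, where all 1x arrays lay below all 0.5x arrays, it was -0.45 ± 0.15 (SE), adjusted p = 0.116, with an interval of -0.77 to -0.12. The dimmer probe of gstt2 went the other way, by 0.39 (adjusted p = 0.268). The 95% interval stayed within 1 log2 unit of 0 for 43 of the 47 genes, and its median half-width was 0.35. For gstp1.1 it was wide, at -1.43 to 1.91. The groups differed in scan day as well, with 3 of 5 arrays at 1x and 1 of 5 at 0.5x scanned on day 1.

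The difference at 1x was not the same on both scan days for many of the genes. Tested as an interaction, 21 of the 47 genes had a difference at 1x that was larger on day 1 than on day 2, against 17.4% of all genes called in either direction. The only controls of day 1 were control replicates 1 and 2, known to stand apart before this test was chosen. The test therefore restates their distance from the other controls, and its p-values are not separate evidence of an effect that depends on the day. The gap between the days was 4.66 (adjusted p = 0.000415) for gstp1.1, 2.68 (adjusted p = 0.00024) for gsta.1, 2.62 (adjusted p = 0.000812) for gsto2 and 1.99 (adjusted p = 0.0115) for hmox1a. For prdx1 it was 0.30 (adjusted p = 0.362), for mgst3b 0.57 (adjusted p = 0.0951) and for gpx3 0.47 (adjusted p = 0.133). Within day 1, with 3 arrays at 1x and 2 controls, 35 of the 47 were called, against 44.2% of all genes, and the median difference was 0.60. Within day 2, with 2 arrays at 1x and 2 controls, 3 were called, namely gpx3, mgst3b and prdx1, against 4.15% of all genes, and the median difference was 0.09. The 18 genes that rose had differences of 0.59 to 5.14 on day 1 and of -0.12 to 0.91 on day 2, positive on day 2 for 16. At 0.5x the median over the 47 was 0.66 on day 1, with a single 0.5x array whose spread is assumed to be that of the other groups, and 0.07 on day 2.

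Each slide carried 1 control array, so effluent and control could also be set side by side on the same glass, without a test. At 1x, 33 of the 47 genes were higher than the control on all of slides 1, 2 and 3 and 6 were lower on all of them. At 0.5x, 15 were higher on all of slides 2, 3 and 4 and 4 were lower. The same counts were not made over all genes, so these have no background. The control arrays of slides 1 and 2 were the outlying control replicates 1 and 2, so those slides carry the same contrast as described above. For mgst3b the 1x arrays exceeded the control by 1.69, 1.41 and 0.89 on slides 1, 2 and 3, and for prdx1 by 1.29, 0.96 and 0.77. For gpx3 they lay below it, by -0.59, -0.38 and -1.11. For gstp1.1 the same differences were 5.72, 4.57 and 0.62. The genes thus differ in how much of their slide 1 and slide 2 difference is found on slide 3.

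**Figure D3:**
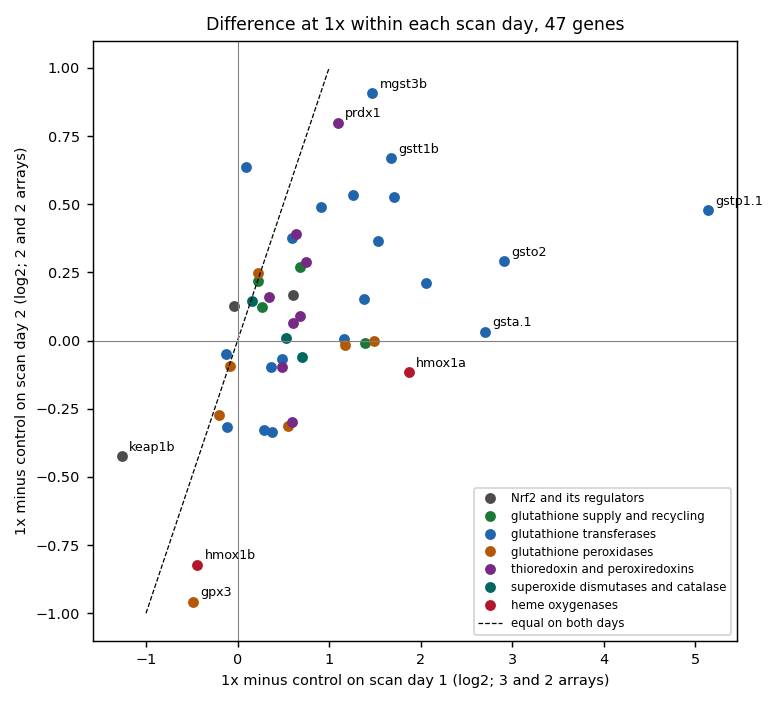
Difference of 1x from control within scan day 1 (x axis) and within scan day 2 (y axis), in log2 units, for each of the 47 genes, coloured by role, with the dashed line where both are equal; the axes have different scales. For 18 of the 20 transferases the difference was larger on day 1, as for gstp1.1 at 5.14 and 0.48, while mgst3b, at 1.47 and 0.91, and prdx1, at 1.098 and 0.80, lie closer to the line.

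Markers of liver, gut and pancreas were low on the same control arrays, and their part in the results above was not tested. Of the hepatocyte markers, 16 of 20 were measured and control replicates 1 and 2 lay below all other arrays for 13. Of the enterocyte markers, 13 of 14 were measured and this held for 12. Of the exocrine pancreas markers, 16 of 18 were measured and this held for all 16. Over all genes it held for 15.6%. The median deviation of the hepatocyte markers from their mean over all arrays was -1.89 and -1.05 on control replicates 1 and 2, -0.01 and 0.33 on the other controls, and 0.12 to 0.38 on the effluent arrays. For the antioxidant genes the same medians were -0.60 and -0.52, -0.03 and 0.13, and 0.00 to 0.20. The enterocyte markers were at -1.43 and -0.80, 0.09 and 0.07, and 0.01 to 0.42, and the pancreas markers at -2.49 and -1.84, 0.70 and 1.07, and -0.47 to 0.88. Erythroid markers, 10 of 14 measured, were at -0.93 and -0.37, -0.21 and -0.30, and -0.06 to 0.50. Neuron markers, 9 of 10 measured, were at 0.51 and 0.36 on control replicates 1 and 2 and at -0.31 to 0.20 on the effluent arrays.

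In whole larvae, fewer cells of a type and less RNA per cell cannot be told apart. At 1x, 8 of 16 hepatocyte, 6 of 13 enterocyte, none of 16 pancreas and 6 of 10 erythroid markers were called higher, and 4 of 9 neuron markers lower. At 0.5x the counts were 4 hepatocyte, 6 enterocyte, 0 pancreas and 4 erythroid markers higher, and 0 neuron markers lower. Over all genes 10.3% were called higher and 16.2% lower at 1x, and 4.38% higher and 4.29% lower at 0.5x. Within scan day 2 the median difference at 1x was 0.08 for hepatocyte markers, 0.01 for enterocyte markers, -1.17 for pancreas markers and 0.35 for erythroid markers, against 0.09 for the 47 antioxidant genes and 0.25 for their glutathione transferases. Markers of each of these cell types were measured, as the label of whole larvae implies.

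**Figure D4:**
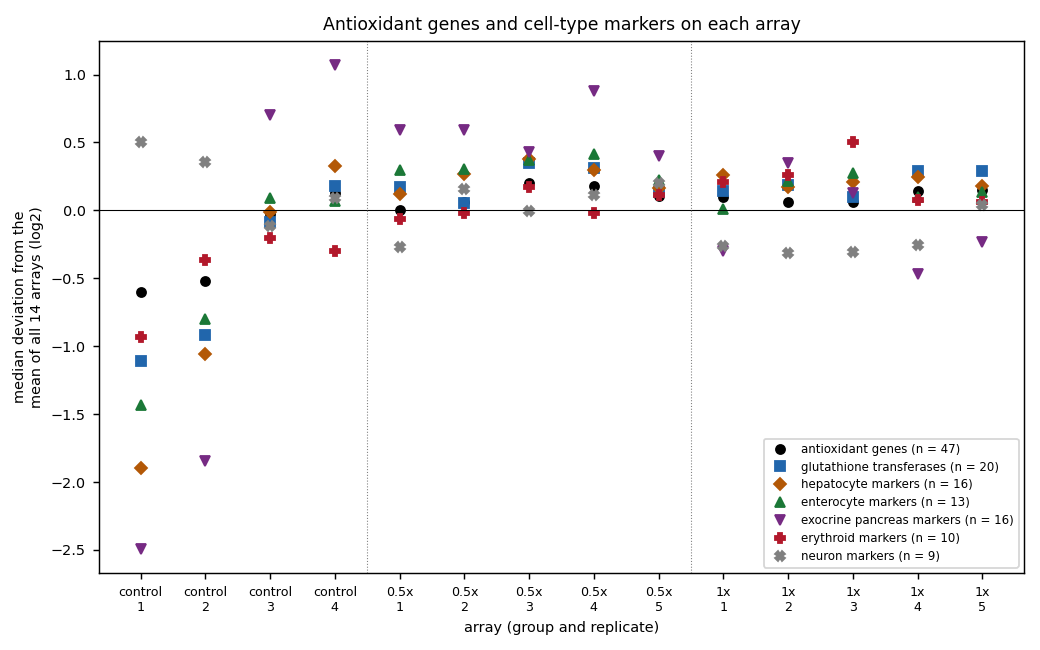
Median deviation of each gene list from its mean over all 14 arrays (y axis, log2 units) on every array (x axis, by group and replicate). On control replicates 1 and 2 the antioxidant genes lie at -0.60 and -0.52 and the hepatocyte markers at -1.89 and -1.05, below all other arrays, while the neuron markers lie at 0.51 and 0.36, above them.

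Other genes of the pathway were taken from a list of 69, of which 50 were measured. At 1x 13 were called higher and 4 lower (nfe2l3, mafga, txn2 and cbr1), and at 0.5x 9 higher and none lower. The 13 include ggact.2 and ggact.3 and the 9 include ggact.2, which were not well above background on any control array. Both passed the filter on dim signals only through effluent arrays. Their calls have to be left out of the 13 and the 9 before these are set beside the shares of all genes. Over all genes 10.3% were called higher and 16.2% lower at 1x, and 4.38% higher and 4.29% lower at 0.5x. Among 10 partners and relatives of Nrf2, none was called higher at 1x, and nfe2l3, a related factor, fell, with a difference of -0.90 ± 0.23 (SE), adjusted p = 0.0122. That call rests on 1 of the 4 probes of nfe2l3. Of 16 other Nrf2 targets 4 rose, including ugdh, which makes UDP-glucuronic acid, by 1.81 ± 0.20 (SE), adjusted p = 0.00019, with 2.31 on day 1 and 1.27 on day 2. The quinone reductase gene nqo1, a standard Nrf2 target in mammals, rose by 0.96 ± 0.19 (SE), adjusted p = 0.00408, with 1.41 on day 1 and 0.46 on day 2.

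Of 12 genes listed under glutathione breakdown and use, chac1, chac2 and glo1 rose at 1x. Over all genes, 10.3% were called higher at 1x. The fit also called ggact.2 and ggact.3 higher, but these calls are not set against that share, for the reason given next. The genes ggact.2 and ggact.3 encode gamma-glutamylamine cyclotransferases, enzymes named for gamma-glutamylamines and not for glutathione. Neither was well above background on any control array, so both passed the filter on dim signals only through effluent arrays. Measured against the lowest signal above background on each control array, ggact.2 was at least 13.5-fold higher at 1x. At 0.5x, above background on 4 of 5 arrays, it was at least 2.63-fold higher. The same bound for ggact.3, above background on 4 of 5 arrays at 1x, was at least 1.13-fold. The p-values of the fit used control signals not well above background, so they do not test these bounds. Of 12 thioredoxin and glutaredoxin relatives 4 rose at 1x, against the same 10.3% of all genes.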

How the data were processed

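The authors deposited the Feature Extraction 10.7 output of 14 1-colour arrays, and the processed signal is a linear intensity, background-subtracted per the file headers. Log2 values deposited as a matrix, with no stated method, matched these signals less the 75th percentile and the slide's median on slides 2 to 4 (column medians -0.0171 to 0.110). The centring on slide 1 stayed unknown. The matrix served as an alternative, fitted without a term for slide. Groups were unequal over slides, so its centring can remove part of a group difference, which its p-values do not take into account. Outlier spots (73) were left out, none was saturated, and 85.4% to 90.9% of probes were well above background; the median signal was 131 to 254. The number of arrays limits precision.

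Log2 signal less each array's 75th percentile was fitted with limma 3.58.1 (R 4.3.3) over all 14 arrays, without a block, on the 38803 probes that in some group were well above background on 4 arrays or more. P-values were adjusted by Benjamini-Hochberg, and the scripts were tested on simulated data. The normexp alternative used median spot signals in place of mean signals. Names came from RefSeq accessions in the GRCz12tu gene table; no coordinates or sequences are given. Same-numbered replicates did not deviate together in every pair (r -0.22 to 0.49), and the main fit did not pair the arrays by number. These values cannot exclude a pairing, since some same-numbered arrays lay on different slides and scan days.

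Members, lists and tests were chosen with earlier results of these data known. Values on every array are given for members called with an absolute difference of at least 0.8 and for 14 genes fixed by name, of which srxn1 was not measured, and for gpx3 and hmox1b, added after their values were seen. Among other pathway genes the 5 largest called at 1x, and nqo1, are named; others named were chosen after their values were seen. Alternatives changed normalization, background, filter, probe choice, blocks, scan day, arrays left out and the deposited matrix.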

Additional observations from a re-analysis of the deposited data

Results flagged for a closer look

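In 3 of 69 groups of arrays tested, 1 array lay far from the rest of its group by Dixon's test, where chance alone flags about 1 in 20. For gstp1.1, 1x replicate 5 was at 0.91 and the other 1x arrays at 1.15 to 1.21. For nfe2l2a, 0.5x replicate 1 was at 2.15 and the other 0.5x arrays at 2.54 to 2.64; this was also the single 0.5x array scanned on day 1. For txnb, 1x replicate 2 was at 1.60 and the other 1x arrays at 1.79 to 1.86. The low control replicates 1 and 2 were not singled out by this test, since they lie together.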

How the results depend on the processing

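The share of all genes called in the same fit is given in brackets. The count of 21 genes called at 1x (26.6%) became 35 within scan day 1 (44.2%) and 3 within scan day 2 (4.15%). It became 5 without control replicates 1 and 2 (11.4%) and 11 with the 0.5x arrays left out of the fit (18.6%). When single arrays were left out it was 10 to 29 (14.3% to 31.9%). The 7 called at 0.5x (8.67%) became 11 with the mean of a gene's probes (9.83%), 4 with slide as a block (6.5%) and 4 with the deposited matrix (7.97%). That count was 1 within day 2 (2.17%), 0 without control replicates 1 and 2 (1.75%) and 2 with only the groups compared (2.73%). With single arrays left out it was 2 to 29 (2.85% to 24%). For 1x against 0.5x, where limma called none (4.32%), 1 was called with quantile normalization (4.6%), 1 with normexp (4.29%) and 1 with slide as a random block (4.34%). There were 2 with scan day as a block (4.47%), 1 within day 2 (2.73%) and 3 without control replicates 1 and 2 (9.28%). With only the groups compared there were 2 (9.11%), and with single arrays left out 0 to 2 (1.97% to 11.3%). With the replicate number as a replicate block the counts were 22 (29.3%), 10 (9.08%) and 0 (4.51%). The interaction count of 21 (17.4%) was 24 after quantile normalization (18.7%). Over the 21 calls at 1x and 28 alternatives, 457 of 588 values kept the call, 128 lost it and 3 turned sign: gpx1b within day 2 (-0.000892), hmox1a within day 2 (-0.12) and gss with the mean of its probes (-0.21). Of the 21 calls, 10 held with every single array left out and 3 in every alternative. At 0.5x, 128 of 196 values kept the call and 68 lost it. The cause of these changes was not tested.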

Other observations

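Among the other pathway genes, 6 of 50 were called between the strengths, where 4.32% of all genes were called. Of the 6, ggact.3 passed the filter on dim signals only through 1x arrays, so its call does not count beside that share. The other 5 were lower at 1x than at 0.5x, where 2.64% of all genes were called lower. These 6 genes were chosen after their values were seen. The amino acid transporter subunit gene slc3a2b, whose product is the shared heavy chain of several amino acid exchangers, differed from control by 0.08 at 1x (adjusted p = 0.668) and by 1.12 at 0.5x (adjusted p = 0.000226), a difference between strengths of -1.05 (adjusted p = 0.00029). The glutathione-degrading enzyme gene chac1 differed by 0.58 at 1x and 1.22 at 0.5x, and by -0.64 between them (adjusted p = 0.0225). Between the strengths 1 of the 3 probes of chac1 was called. The others lower at 1x than at 0.5x were bach1b, encoding a repressor of Nrf2 targets (-0.89, adjusted p = 0.00348), mafk, a small Maf (-0.78, adjusted p = 0.0265, by 1 of its 2 probes), and oplah, oxoprolinase (-0.54, adjusted p = 0.0309). The gene called higher was ggact.3, which was not well above background on any control or 0.5x array, so the p-value of the fit is no test of its difference. Scan day is unequal between these groups, with 1 array at 0.5x on day 1. Within days 1 and 2 the differences were -0.97 and -1.15 for slc3a2b, and -0.77 and -0.72 for chac1. They were -1.39 and -0.57 for bach1b, -0.44 and -0.48 for oplah, and -0.15 and -0.97 for mafk. The part of scan day in these differences was not tested.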
